A study of Homo sapiens with 6 samples.

Results

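The genes described here are MYH9, MYH10 and MYH14, which encode the heavy chains of nonmuscle myosin II. Their m6A peaks were read from MeRIP-seq of HEK293T cells, a widely used transformed cell line of human embryonic kidney origin. In MeRIP-seq, RNA fragments that carry N6-methyladenosine (m6A) are enriched with an antibody (IP) and sequenced beside RNA that was not enriched (input). The experiment was done 3 times, as MeRIP 1, MeRIP 2 and MeRIP 3, and each repeat gave 1 peak list from its own IP and input. The labels name no treatment, genotype change or second condition, so the comparisons are between genes, between regions of a gene and between repeats. Nothing in the labels says whether the repeats were separate cultures, so the spread between lists may be technical.

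Peaks were taken as members where their centre lay on the gene's strand within its hg19 span. These spans were chromosome 22 at 36677320 to 36784063 on the minus strand for MYH9, chromosome 17 at 8377520 to 8534036 on the minus strand for MYH10, and chromosome 19 at 50706880 to 50813802 on the plus strand for MYH14. Peaks of different lists that shared at least 1 bp on a strand formed 1 region. The members were 63 of 25737 regions: 20 in MYH9, 16 in MYH10 and 27 in MYH14. MYH10 and MYH14 were chosen by their long chains of regions found in every list, so the number and recurrence of their regions describe that choice and carry no test. MYH9 was added as their paralogue. The nearest listed peaks outside the spans on the same strand lay 41695 bp or more away for MYH9, 103816 bp or more for MYH10 and 19108 bp or more for MYH14. The spans held 0 peaks on the opposite strand.

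Nonmuscle myosin II is a hexamer of a pair of heavy chains, a pair of essential light chains and a pair of regulatory light chains. The heavy chain begins with a motor head that binds actin and hydrolyses ATP, and ends in a long coiled-coil tail through which molecules assemble into bipolar filaments. Phosphorylation of the regulatory light chain, by ROCK or myosin light chain kinase, switches the motor on, and the filaments then power cytokinesis, cell migration and cortical tension. MYH9 encodes the heavy chain of myosin IIA, altered in inherited disorders with giant platelets. MYH10 encodes that of IIB, abundant in brain and heart. MYH14 encodes that of IIC, linked to inherited hearing loss. In mRNA, m6A is known to be placed mainly at sequences with GGAC or a close relative at their core, often in long exons and around the stop codon.

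The 5′ ends are shown first because peaks of MYH9 and MYH10 in every list reached them. The first 30 transcribed bases from RefSeq (GRCh38.p14; all 3 genes matched) are printed 5′ to 3′, with GGAC in capitals. They lie on chromosome 22 at 36387938 to 36387967 (minus strand), chromosome 17 at 8630696 to 8630725 (minus strand) and chromosome 19 at 50203622 to 50203651 (plus strand).
MYH9: gcagatcaccgcggttcctgggcagggcac
MYH10: gtttgGGACtgaggcgctggatctgtggtc
MYH14: acgcccctctttctccccaggccgaagcct

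MYH10 had GGAC at bases 6 to 9, counted from 1 at the first transcribed base, where it was part of GGACT. Neither motif was in the windows of MYH9 and MYH14 on the transcribed strand, and neither was in any of the 3 windows on the other strand. Over 35116 RefSeq gene starts, 11% of such windows held GGAC on the transcribed strand and 10.2% on the other. GGACT, which contains GGAC, was in 2.70% and 2.97%. The windows and the hg19 peaks are of different builds and were not laid over each other. A match describes letters and does not mark a methylated base.

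Listed peaks lay at both ends of MYH9 and MYH10 and mostly inside MYH14. MYH9 had 18, 18 and 15 peaks in MeRIP 1, 2 and 3, or 17.0 ± 1.73 (SD, n = 3 lists). MYH10 had 15, 16 and 15, or 15.3 ± 0.577. MYH14 had 23, 22 and 25, or 23.3 ± 1.53. The peaks covered 4.29 ± 0.176% of the span of MYH9, 2.72 ± 0.0683% of MYH10 and 3.73 ± 0.138% of MYH14. The long stretches between them are seen in the map of peaks along the genes.

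**Figure D1:**
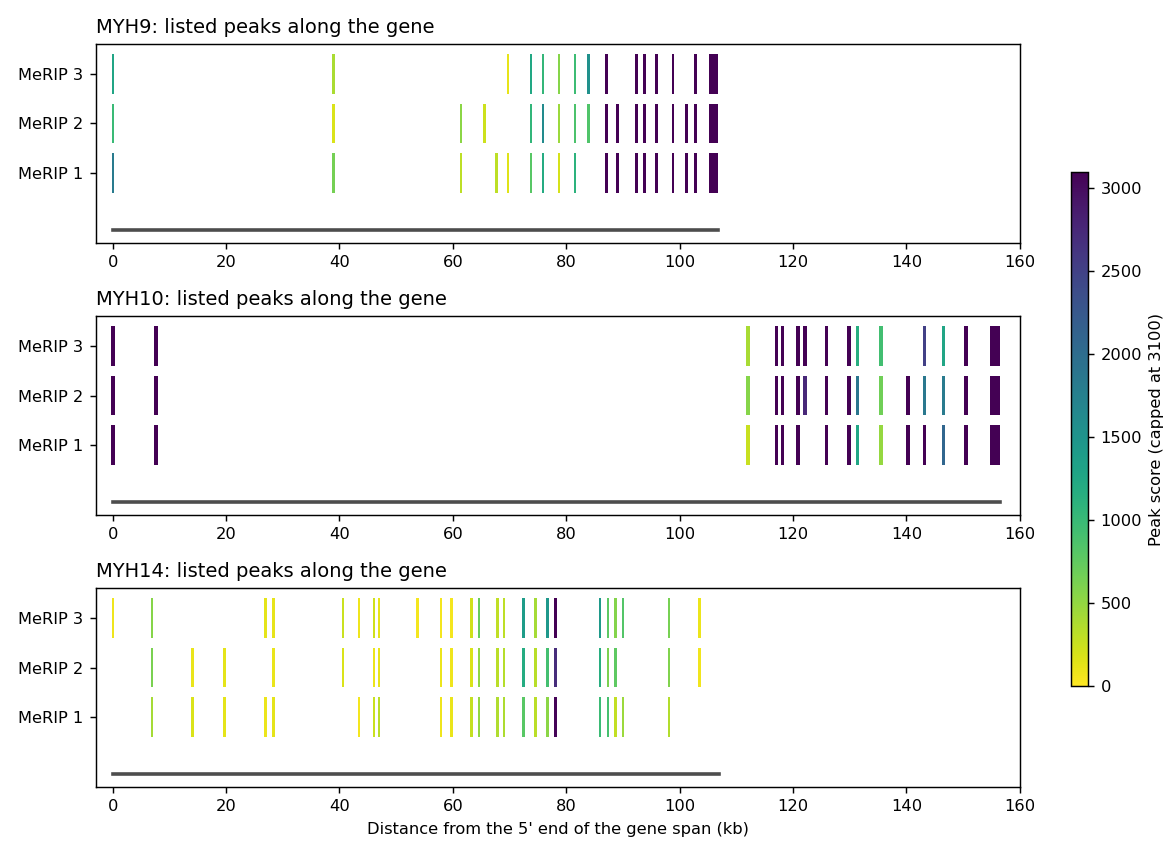
Listed peaks of the 3 genes, by distance from the 5′ end of the gene span (horizontal axis, kb) and by list (rows); the grey line is the span, colour is the peak score capped at 3100, and marks of narrow peaks are drawn wider than scale so that they can be seen. Peaks of MYH9 and MYH10 reach both ends of the span, and the darkest run of MYH9 lies in its downstream part.

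In MYH9, 13 of 20 regions had a peak in all 3 lists, which is 65.0%, beside 59.3% of all regions of the series. The other regions comprised 5 in 2 lists and 2 in 1 list. Each peak carries the authors' score, which runs from 50 to a ceiling of 3100 shared by many peaks and was read from its values as a MACS score on a log scale of p. Such a score depends on coverage as well as on enrichment, and was not read as a level of m6A. Scores above the ceiling were set to it in medians and counts.

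The scores of MYH9 varied in its upstream part, then stepped up to the ceiling. The region at the 5′ end (261 bp, chromosome 22 at 36783852 to 36784112) scored 1819.7, 1000.4 and 1283 in MeRIP 1, 2 and 3. The next, of 352 bp at 36744949 to 36745300, scored 652, 174 and 388. Its highest score was 3.75 times its lowest, the widest spread of any member found in all 3 lists below the ceiling. Of the next 4 regions, none was in all 3 lists, and their scores ran from 109.6 to 539. A pair of regions of 174 bp followed. The first of them scored 807, 1061 and 1246, and the second 1211, 1615 and 1049. A weaker region of 115 bp came next, at 198, 469 and 560.2, and then one of 194 bp at 1104, 876 and 979.

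From the region of 207 bp at 36696897 to 36697103 to the 3′ end, all 7 regions of MYH9 found in every list stood at the ceiling, in 21 of 21 values. The 6 recurrent regions upstream of it ran from 174 to 1819.7, with none of 18 values at the ceiling. The groups of values on either side therefore did not overlap; the position of the step was chosen after the values were seen. These counts cover recurrent regions only. Downstream regions of 124 and 129 bp were at the ceiling in MeRIP 1 and MeRIP 2. They had no listed peak in MeRIP 3. The last region, 1509 bp wide at 36677323 to 36678831, was the widest of the gene. It ended 3 bp from the span's 3′ end.

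In MYH10, 14 of 16 regions were in all 3 lists, the property it was chosen for, and the other 2 were in 2 lists. Of these 14, 9 stood at the ceiling in every list (64.3%), as did 7 of 13 in MYH9 (53.8%) and 0 of 18 in MYH14, against 18.9% over the series. Ceiling scores of MYH10 lay at both ends of the gene. The region at the 5′ end (108 bp, chromosome 17 at 8533972 to 8534079) and the next (376 bp, 8526220 to 8526595) were at the ceiling in every list. No listed peak followed for 104110 bp.

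The chain of MYH10 then opened with its weakest region, of 161 bp at 8421949 to 8422109, which scored 265, 560.1 and 400.4. Immediately downstream, regions of 132, 207, 138, 213 and 145 bp were at the ceiling in every list. Scores dipped again further on: a second region of 207 bp scored 1269.9, 1882.5 and 1156, and one of 105 bp at 8398455 to 8398559 scored 489, 677 and 934. The regions of 162 and 129 bp were also below the ceiling in 2 and 3 lists respectively. The 162 bp region scored 3100, 1860.3 and 2511, and the 129 bp region 2092, 1819 and 1281. The gene closed with regions of 209 bp and 1744 bp at the ceiling in every list, the latter at 8377523 to 8379266 and again 3 bp from the end of the span. High and low regions thus alternated. In MYH9 scores also rose and fell upstream of the step, but its recurrent regions stayed at the ceiling from there on. Differences between regions at the ceiling cannot be seen in either gene, so the shapes of their profiles were not compared further.

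MYH14 had the most regions of the 3 genes and the lowest scores. When peaks under the median score of their list were dropped, this order of numbers turned: MYH14 then had 6 recurrent regions, MYH9 had 11 and MYH10 had 13. All 3 lists held 18 of its 27 regions (66.7%, again the basis of its choice), with 7 in 2 lists and 2 in 1 list. Over the 18 recurrent regions the median score was 367, 432 and 492 in the 3 lists, or 430.4 ± 62.5 (SD, n = 3 lists). The same median was 3100 in every list for MYH9 and for MYH10, and 735 ± 59.0 over the 15265 recurrent regions of the series. The highest MYH14 median of any list was thus below the ceiling at which all medians of the other genes stood.

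The strongest region of MYH14 was one of 249 bp on chromosome 19 at 50784851 to 50785099. It scored 3074, 2710.0 and 3100, the only MYH14 region to touch the ceiling, in MeRIP 3. The next strongest by mean score were a pair of regions of 213 bp, one upstream and one downstream of it. The downstream one, at 50792693 to 50792905, scored 989, 1161 and 1429, and the upstream one, at 50779248 to 50779460, scored 806, 1187 and 1401. The weakest recurrent regions, of 161 bp and 109 bp at 50764732 and 50766569, lay in the middle of the gene. The former scored 76.3, 86.9 and 53.2, and the latter 103, 76.0 and 55.0. These lay close to the lowest score of 50 in the lists, the limit below which no peak was listed. The 7 regions of MYH14 in 2 lists scored from 53.2 to 824, the highest being that of 124 bp at 50796821 to 50796944 in MeRIP 3.

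The other recurrent regions of MYH14 are given in 5′ to 3′ order. The first, of 412 bp, scored 414, 622 and 562, and the next, of 141 bp, 124, 102 and 116. A pair of 174 bp scored 253, 92.7 and 222, then 325, 116 and 119. The pair thus had its highest score in MeRIP 1 in both cases. After the weakest regions, that of 132 bp scored 279, 173 and 224, and the first of 207 bp 501, 520.3 and 722. Those of 138 and 172 bp scored 372, 326 and 299, and 378, 343 and 307. All of these lay under the regions of 213 bp in the same list. Between the upstream 213 bp region and that of 249 bp, the second region of 207 bp scored 319.7, 339 and 423, and one of 153 bp scored 541, 929.7 and 1442. Towards the 3′ end, the regions of 162 and 129 bp scored 911, 628 and 783, and 282, 774 and 569.9. The last, of 209 bp, scored 362, 588 and 639, with its lowest score in MeRIP 1.

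Upstream of its first region of 207 bp, the 7 recurrent regions of MYH14 had a median score of 158 ± 82.7 (SD, n = 3 lists). From that region on, the 11 others had a median of 617 ± 111. The medians of the downstream part were higher in 3 of 3 lists, although single regions overlapped: upstream values reached 622 in the 412 bp region near the 5′ end, and downstream values went down to 282. The same split of MYH10 gave medians of 3100 on both sides in every list, so it showed no such rise. The split lies where the scores of MYH9 stepped, a position chosen after the values were seen. As a description, the rank correlation between order along the gene and mean log2 score was 0.64 over the 18 regions of MYH14, 0.78 over the 13 of MYH9 and -0.18 over the 14 of MYH10. The points of a gene share its RNA, and those at the ceiling are tied.

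**Figure D2:**
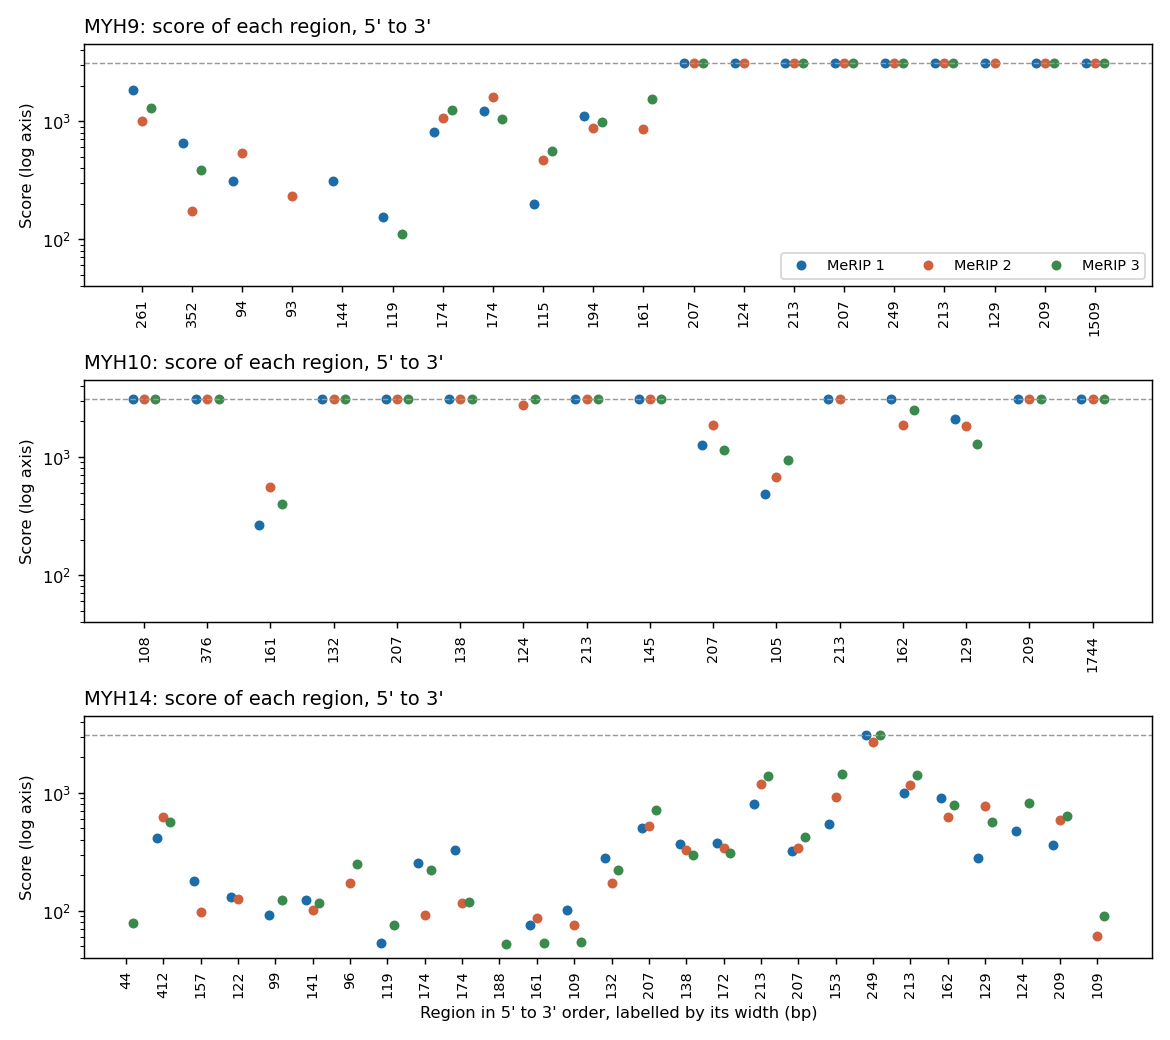
Peak score (vertical log axis, capped at 3100, the dashed line) of every region of MYH9, MYH10 and MYH14 in 5′ to 3′ order, labelled by width in bp; each point is 1 list, and a missing point means that the list held no peak there. MYH9 reaches the ceiling at its first 207 bp region and stays there wherever a peak is listed. MYH10 leaves and returns to the ceiling, and MYH14 meets it in 1 region.

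The 3′ ends separated MYH14 from its paralogues. MYH9 and MYH10 each ended in a region over 1000 bp wide that lay 3 bp from the end of the span and was at the ceiling in all 3 lists. In MYH14 the last region was 109 bp wide and lay 3388 bp from the end of the span. It was listed in MeRIP 2 and MeRIP 3 alone, at 61.6 and 89.7. At the 5′ end, MYH14 had a single peak of 44 bp, listed in MeRIP 3 at 78.9, where MYH9 and MYH10 had regions in all 3 lists. Read depth is unknown and a peak must pass at least the score limit to be listed, so the missing peaks do not show that the ends of MYH14 RNA are unmethylated.

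Region widths recurred between the genes, to the base and in the same order. In 5′ to 3′ order, MYH10 and MYH14 shared 9 equal widths among regions found in all 3 lists: 161, 132, 207, 138, 213, 207, 162, 129 and 209 bp. This was 64.3% of the 14 regions of MYH10 and 50% of the 18 of MYH14. MYH9 and MYH14 shared 8: a pair of 174 bp, then 207, 213, 207, 249, 213 and 209 bp, or 61.5% and 44.4% of their regions. MYH9 and MYH10 shared 4, namely 207, 213, 207 and 209 bp, and these same 4 were common to all 3 genes. The rule that chose the genes did not name widths. The genes are paralogues, however, and were chosen with earlier results of these data known, so the matches carry no test.

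When regions of any list were used, the number common to the 3 genes in order rose to 7: 161, 207, 213, 207, 213, 129 and 209 bp. MYH9 and MYH10 then shared 8, which added a region of 124 bp between those of 207 and 213 bp. In MYH14 a region of 172 bp stood in that place, and its own region of 124 bp lay further downstream, between those of 129 and 209 bp. Shares of the series with a given width are stated for scale, and were not compared with those of other widths. A width of 209 bp was held by 45 regions of the series (0.175%), 249 bp by 40 (0.155%), 207 bp by 52 (0.202%) and 213 bp by 74 (0.288%).

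**Figure D3:**
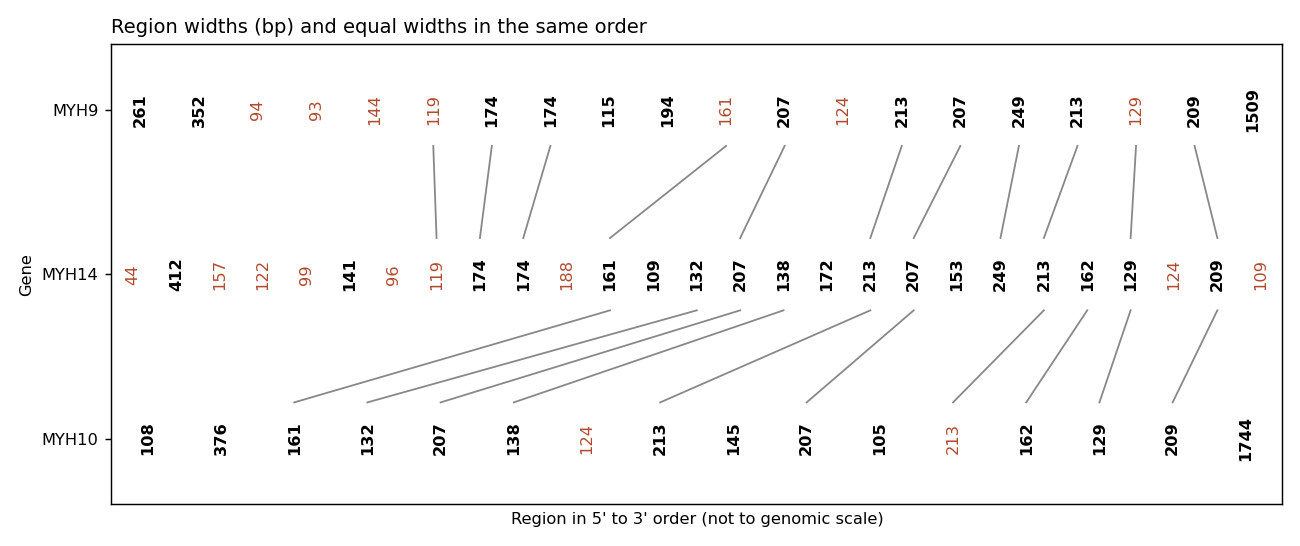
Widths in bp of all regions of MYH9, MYH14 and MYH10 in 5′ to 3′ order (horizontal axis, not to genomic scale), with bold black for regions in all 3 lists and brown for the others; grey lines join widths that are equal and in the same order in any list. MYH14 is joined to MYH9 by 11 lines and to MYH10 by 10. No lines are drawn between MYH9 and MYH10, so the width of 124 bp that they share in order has none.

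The spacing between these regions was not shared. From the first region of 207 bp to that of 209 bp, the distance was 15.5 kb in MYH9, 32.1 kb in MYH10 and 33.3 kb in MYH14. MYH9 held 8 regions of any list from the first to the last of this stretch, MYH10 held 11 and MYH14 held 12. The stretch was thus shortest in MYH9, while those of MYH10 and MYH14 were of like length. Gaps between single matched regions were not compared between the genes.

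As a description, the same count was made against the 10 other chains of 10 or more recurrent regions lying within 10 kb of one another. MYH9 shared at most 1 equal width in order with any of them, and MYH10 and MYH14 at most 2. Among the 45 pairs of these other chains, 44 shared 3 or fewer. The remaining pair shared 9 and joined chains on chromosome 14 at 65233117 to 65266652 and chromosome 2 at 54850616 to 54896846. Equal widths in order were thus not found in the myosin genes alone. The genes under these chains were not assigned, so whether this pair also comes from related genes was not tested. No chance level was computed.

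Regions of equal width did not have equal scores. At the 9 regions matched between MYH10 and MYH14, MYH10 scored higher in 27 of 27 values compared list by list. MYH9 was above MYH14 in 23 of 24 at 8 matched regions, with 1 tie at the ceiling. That tie was the 249 bp region in MeRIP 3, the strongest of MYH14; MYH9 was at the ceiling there in all lists. MYH10 had no listed region of 249 bp. Between MYH9 and MYH10, 9 of 12 values were tied at the ceiling, and MYH9 was higher in the other 3, all at the second 207 bp region. Over all recurrent regions the median was also lower in MYH14 (430.4) than in MYH9 and MYH10 (3100 each). Unmatched regions were not compared, so these counts are not particular to regions of equal width.

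The weak end was shared too. At the 161 bp region, MYH10 and MYH14 each had their lowest score of the 9 matched regions, in every list: 265, 560.1 and 400.4 in MYH10 beside 76.3, 86.9 and 53.2 in MYH14. The equivalent width in MYH9, at 36700041 to 36700201, was listed in MeRIP 2 and MeRIP 3, at 854 and 1539, directly before the step to the ceiling. The region of 119 bp that MYH9 and MYH14 shared was missing from MeRIP 2 in both genes, and scored 153 and 109.6 in MYH9 and 53.2 and 75.4 in MYH14. Scores of different genes also depend on how much of each RNA was sequenced, which was not measured here, so a higher score cannot be told apart from more RNA.

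Where a region occurred in several lists, its edges were the same to the base. All 45 member regions in 3 lists had identical starts and ends, as did the 14 in 2 lists. Over the series, 72.7% of regions with 1 peak in each list had identical edges in all 3. Of series regions in 2 lists with 1 peak in each, 74.2% had identical edges. Of the 45, 31 had a width divisible by 3 (9 of 13 in MYH9, 9 of 14 in MYH10 and 13 of 18 in MYH14), against 37.2% of recurrent regions of the series. Regions of equal width in paralogues are counted more than once in this, so the 31 are not independent. Recurrent regions of the series had a median width of 538 bp. The median over regions of any list was 184 bp in MYH9, 161.5 bp in MYH10 and 157 bp in MYH14. These gene medians also take in regions that were not recurrent, so the sets are unlike. Series regions of like width were not compared. The regions were not assigned to exons, introns or UTRs here, since no hg19 annotation was used.

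Among 27 recurrent regions that stayed under the ceiling, 20 had a highest score under 2 times the lowest, as did 52.4% of the 11131 such regions of the series. The median of this ratio was 1.63 in the members, beside 1.94 over the series. Since no source states the scale of the score, these ratios are not read as folds of methylation. The place of the members among all recurrent regions is seen in the distribution of mean scores.

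**Figure D4:**
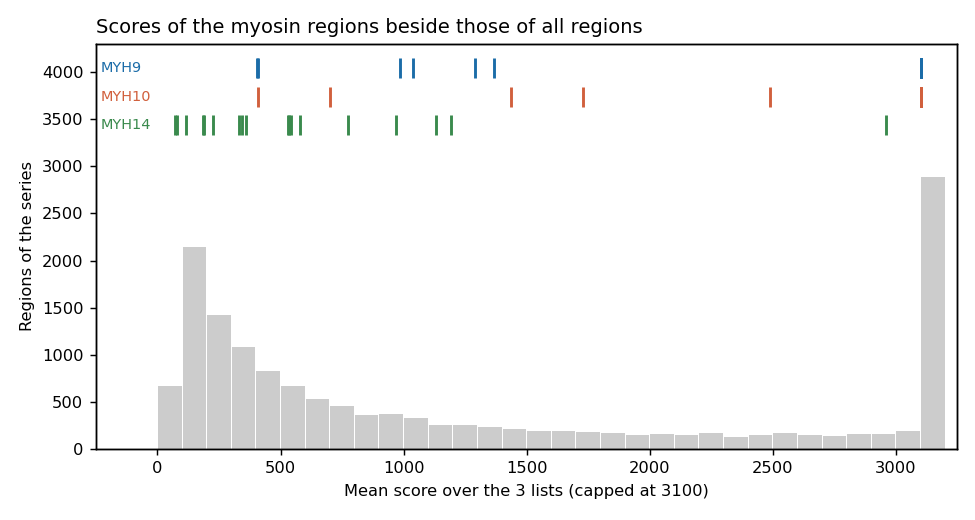
Mean score over the 3 lists (horizontal axis, capped at 3100) of all 15265 regions found in every list (grey bars, number of regions in bins of 100 score units) and of the recurrent regions of MYH9, MYH10 and MYH14 (ticks, 1 per region, with those at the ceiling drawn on top of each other). Ticks of MYH14 crowd at the low end, while MYH9 and MYH10 have 7 and 9 regions at the ceiling.

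Some strong regions were absent from a whole list. Among the 14 member regions found in 2 lists, 4 were missing from MeRIP 1, 4 from MeRIP 2 and 6 from MeRIP 3. Of these, 3 stood at the ceiling in both lists that held them, all missing from MeRIP 3. They were the regions of 124 bp and 129 bp in MYH9, at 36694965 to 36695088 and 36682764 to 36682892, and that of 213 bp in MYH10, at 8393658 to 8393870. Another, of 124 bp in MYH10 at 8411872 to 8411995, scored 2756 and 3100 in MeRIP 2 and MeRIP 3 and was missing from MeRIP 1. The other 10 reached at most 1539. Over the series, 124 of 4595 regions in 2 lists (2.70%) were at the ceiling in both. Why these peaks were absent was not tested.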

How the data were processed

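Per the submitters' processing notes, reads were handled with cutadapt 1.9.3 and HISAT2 2.0.4 on build hg19. Per the labels' protocols, IP and input RNA were depleted of rRNA before library preparation. The authors deposited 1 peak list per repeat, with a start, end, strand and score for each peak, and the labels tie each list to the IP and input of 1 repeat. The peak names hold the word MACS; no label or file header used here states its version, settings or any filter on peaks. Numbers in these names ran in genome order, and some within each gene were not listed. In MeRIP 1, 2 and 3 these were 11, 10 and 12 in MYH9, 6, 6 and 4 in MYH10, and 7, 10 and 9 in MYH14. Why they were not listed was not tested. The scale of the deposited score was read from its values. Read depth is unknown from peak lists, so no counting interval is given.

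Peaks sharing at least 1 bp on a strand were merged over the whole lists (25737 regions), and 1 peak list was counted as 1 replicate. Widths were compared by the longest series of equal values in the same order. All values are descriptions, and no test was run, since the lists are repeats of 1 condition. Python 3.11.15, NumPy 2.4.6, SciPy 1.17.1 and Matplotlib 3.10.9 were used, and the code was tested on simulated data. Every region in all 3 lists was accounted for, and those first, last, widest, strongest and weakest in each gene were named; regions of fewer lists were given by counts, range and highest score. Further regions were named after their values were seen. Genes and regions were chosen with earlier results of these data known. Other genes of the actomyosin pathway were not analysed here, since assigning peaks to them needs an hg19 annotation. In the GRCh38.p14 gene table, 1, 6 and 1 other genes overlap MYH9, MYH10 and MYH14, and peaks were assigned by span and strand alone. Coordinates of peaks are hg19, counted from 1.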

Additional observations from a re-analysis of the deposited data

How the results depend on the processing

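No paired analysis was possible because IP and input of a repeat enter a single list of peaks, with no separate values to pair. Of 75 alternatives, 63 left a count within 1.5 times its main value or another value within 1 SD over the lists. Some of these could not move a value, so the tally does not measure how firm the results are. The spans held no peaks on the opposite strand, so ignoring strand could change nothing. Every recurrent region had 1 peak per list with identical edges, so the edge, reciprocal-overlap and peak-averaging settings could change nothing either. When peaks under the median score of a list were dropped, MYH14 had 6 recurrent regions, all 6 with identical edges, in place of 18, the fewest of the 3 genes, beside 11 in MYH9 and 13 in MYH10. With regions of any list, MYH9 and MYH10 shared 8 equal widths in order in place of 4. With all peaks of the gene, the median score was 2119 in MYH9 and 319 in MYH14. Leaving out 1 repeat gave 14 to 16 regions in both remaining lists in MYH9, 14 to 15 in MYH10 and 20 to 21 in MYH14, all with identical edges. The median score of such regions was 2326 to 3100 in MYH9, lowest without MeRIP 2, and 342 to 393 in MYH14, lowest without MeRIP 3; in MYH10 it was 3100 throughout. The rank correlation of order and score was 0.79 to 0.82 in MYH9, -0.19 to -0.13 in MYH10 and 0.52 to 0.68 in MYH14. MYH9 and MYH10 kept higher medians than MYH14 under every alternative run.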
